A study of Mus musculus with 10 samples.

Results

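The core pluripotency factors examined here are 8 genes taken by name from a list of general pluripotency genes, which was drawn up with earlier results of these data known: Pou5f1 (which encodes Oct4), Sox2, Sall4, Zfp281, Utf1, Dppa5a, Tcl1 and Lin28a. All 8 were found once among the 30677 genes of the count table, and all 8 passed the filter on low counts that left 20027 genes for testing. The libraries came from TNGA cells, a single mouse embryonic stem (ES) cell line in which GFP reports 1 allele of Nanog, grown in serum and leukemia inhibitory factor (LIF). The DMSO group comprised 3 RNA-seq libraries from cells given vehicle for 48 hours, and the MB-3 group 3 libraries from cells given 100 μM of the Kat2a inhibitor MB-3 for 48 hours. Every culture, the controls included, received 0.1% DMSO, and the replicates carry the letters A, B and C in each group. An H3K9ac peak list from 1 set of merged duplicates per treatment was also deposited. The question was whether the RNA level of genes that keep ES cells pluripotent moved when the acetyltransferase was inhibited.

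Oct4 and Sox2 bind DNA together at enhancers of ES cell genes, including their own, and loss of either ends self-renewal. Sall4 and Zfp281 are zinc finger proteins that work with them and that recruit the NuRD chromatin remodeling complex, while Utf1 is a chromatin-bound protein whose gene is a direct target of the Oct4 and Sox2 pair. Lin28a is an RNA-binding protein that blocks maturation of the let-7 microRNAs, Tcl1 is a coactivator of Akt kinases, and Dppa5a is a small KH-domain protein of pluripotent cells and germ cells. The list gives these factors as general pluripotency genes, which does not mean that each is expressed alike in the naive and in the primed state. Most stay expressed while naive genes such as Nanog vary from cell to cell. Bulk RNA cannot tell fewer expressing cells from less RNA per cell.

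The libraries held 42270312 to 51137896 counts, so 1 CPM, the unit of all levels below (counts scaled to a common normalized library size), stood for 42.9 to 50.2 reads. The member with the fewest reads, Tcl1 in MB-3 replicate C, still had 3839, so that for the members the spread between libraries outweighed counting error. Some markers and relatives described below had far fewer reads, and a few had 0 in a library. By the study's methods the cells were treated in triplicate, with no statement of separate days or passages. The p-values refer to the spread between these libraries, which edgeR estimates for each gene with information shared among genes. A p-value can therefore be small where a gene's own replicates disagree. As a check of the cell type, 6 ES cell markers (Nanog, Zfp42, Esrrb, Tdgf1, Fbxo15 and Fgf4) summed to 2507 ± 95.8 CPM in the DMSO group and 2531 ± 58.9 CPM in the MB-3 group (SD, n = 3), with Esrrb the most abundant in DMSO and Tdgf1 in MB-3. Both groups thus expressed the markers of ES cells. Kat2a itself, the target of the inhibitor, averaged 130 ± 7.32 CPM in the DMSO libraries and 130 ± 4.62 CPM in those given MB-3 (SD, n = 3), and its paralog Kat2b 57.7 ± 5.27 and 58.3 ± 1.59 CPM.

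Promoter sequences are shown for the 4 members on which the expression or acetylation results below turn and for which a RefSeq promoter (GRCm38.p6) was analysed here. Each run is the part of the 250 bases before the RefSeq start that lies ahead of the first exon of GENCODE M21, written 5′ to 3′ on the strand of the gene. Capitals mark GC boxes, the letters GGGCGG or their complement CCGCCC.
Pou5f1, chr17:35505782-35506017, plus strand: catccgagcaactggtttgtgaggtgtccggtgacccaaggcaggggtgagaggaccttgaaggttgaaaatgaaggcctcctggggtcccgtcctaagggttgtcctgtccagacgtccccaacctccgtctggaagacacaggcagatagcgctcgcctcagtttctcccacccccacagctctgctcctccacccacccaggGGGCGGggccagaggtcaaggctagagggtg
Zfp281, chr1:136624651-136624900, plus strand: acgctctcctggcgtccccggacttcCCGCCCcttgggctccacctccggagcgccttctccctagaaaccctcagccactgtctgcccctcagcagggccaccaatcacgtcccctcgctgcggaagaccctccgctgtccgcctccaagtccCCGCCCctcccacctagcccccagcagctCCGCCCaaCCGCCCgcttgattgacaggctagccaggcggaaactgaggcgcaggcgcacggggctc
Utf1, chr7:139943606-139943788, plus strand: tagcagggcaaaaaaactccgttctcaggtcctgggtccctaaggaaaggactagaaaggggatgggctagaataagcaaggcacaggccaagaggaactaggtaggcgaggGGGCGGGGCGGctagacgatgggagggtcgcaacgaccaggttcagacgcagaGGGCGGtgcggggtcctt
Tcl1, chr12:105222794-105222987, minus strand: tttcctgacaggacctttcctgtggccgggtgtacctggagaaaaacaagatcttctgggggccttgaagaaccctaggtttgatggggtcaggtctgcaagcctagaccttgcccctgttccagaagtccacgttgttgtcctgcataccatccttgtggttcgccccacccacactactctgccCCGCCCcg
All 4 held a GC box, the binding motif of Sp1-like factors, which 32.7% of 32817 RefSeq promoters hold in the 250 bases before their start. Over that whole window on both strands, Utf1 had 4 matches (of which a pair overlapped), Zfp281 had 4, Tcl1 had 2 and Pou5f1 had 1. A second RefSeq start of Pou5f1, with the window chr17:35508557-35508806, had 0 GC boxes, 1 match to CATTGT and 45.6% G and C. None of the 4 windows of the starts shown held the octamer ATGCAAAT bound by Oct4 (found in 1.6% of all promoters), the Sox letters CATTGT (10.7%), the E-box CACGTG (6.02%) or the TATA box letters TATAAA (12.4%). Of the bases in these 4 windows, G and C made up 62.0% for Pou5f1, 69.6% for Zfp281, 61.6% for Utf1 and 57.6% for Tcl1, beside a median of 52.4% over all promoters. Of the other members, Sox2 had 2 GC boxes, and Lin28a had 0 and 1 match to CATTGT. Promoters of Sall4 and Dppa5a were not analysed here. A match is a description of these letters only.

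To compare the members with each other, CPM was divided by the length of a gene's merged exons. On this scale Dppa5a stood far above the rest, at 2343 ± 228 CPM per kb in DMSO (SD, n = 3), and was the 45th most abundant of the tested genes by CPM. Pou5f1 followed at 299 ± 15.7 CPM per kb in DMSO, or 494 with its longest transcript in place of merged exons. Sox2 came next at 219 ± 10.9, and then Utf1 at 163 ± 28.2 CPM per kb in DMSO. Lin28a stood at 125 ± 8.20 and Tcl1 at 60.8 ± 4.86 CPM per kb in DMSO. Sall4, at 28.8 ± 4.31, and Zfp281, at 26.9 ± 0.985, closed the order in the same units and group. Each neighbor in this order was separate in all 6 libraries from the next, except Sall4 and Zfp281, whose ranges overlapped. Pou5f1, Sox2, Utf1, Lin28a and Tcl1 kept their places after Dppa5a in MB-3, where Dppa5a stood at 2137 ± 130 CPM per kb. Oct4 and Sox2 mRNA thus came after that of Dppa5a, and the zinc finger genes had the lowest levels.

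**Figure D1:**
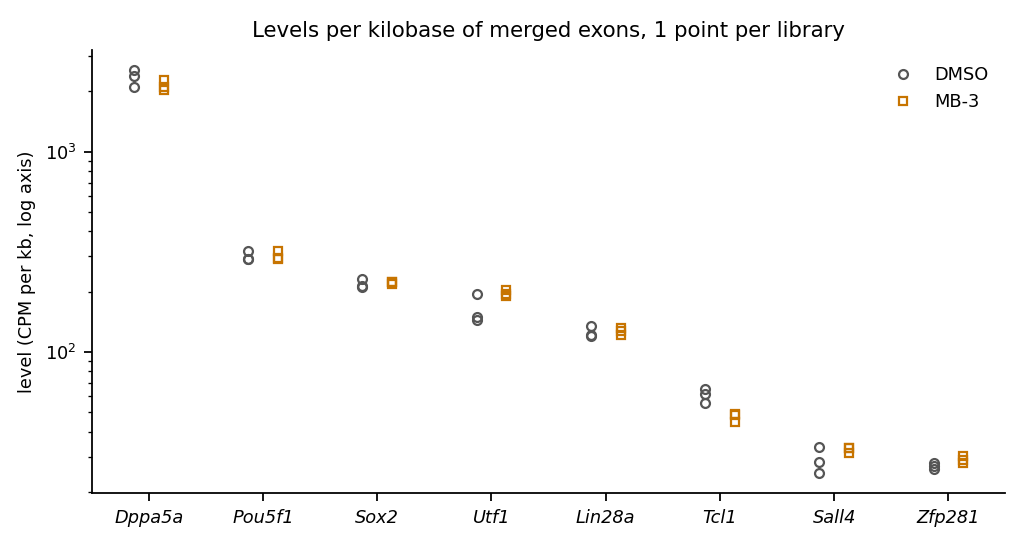
Level of each member in CPM per kb of merged exons (log axis), with 1 point per library for 3 DMSO libraries (circles) and 3 MB-3 libraries (squares). Dppa5a sits between 2035 and 2547 CPM per kb in all 6 libraries, while Sall4 (24.8 to 33.4) and Zfp281 (26.0 to 30.3) share a range.

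Under MB-3 the average RNA level of most core factors stayed within the spread of the libraries, with Tcl1 the clearest exception. With treatment as the only term, 0 of the 8 members were differentially expressed at an adjusted p-value of 0.05, where the background over all genes tested was 0.205% (41 genes), and 2 of the 8, Tcl1 and Utf1, were under 0.05 before adjustment, against 10.9% of all genes tested (quasi-likelihood F test of edgeR). With the replicate letter added as a block, 3 of 8 members were differentially expressed, against 7.12% of all genes tested (1425 genes). Utf1 and Sall4 were higher (background 3.22%) and Tcl1 was lower (background 3.9%). Since libraries of the same letter deviated together, the values with the block are given beside those without it. DESeq2 called only Tcl1, both with the block (background 3.13%) and without it (background 0.959%). Without DMSO replicate B, treatment alone called the same 3 members in edgeR, where the background was 2.55% (520 genes). The block fits that leave out letter A, B or C in both groups, used below, had backgrounds of 4.71%, 4.51% and 5.15%. The median log2 fold change was 0.02 over the members and -0.0011 over all genes tested. In MB-3, 6 members had a higher and 2 a lower mean, where 49.7% of all genes tested were higher.

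**Figure D2:**
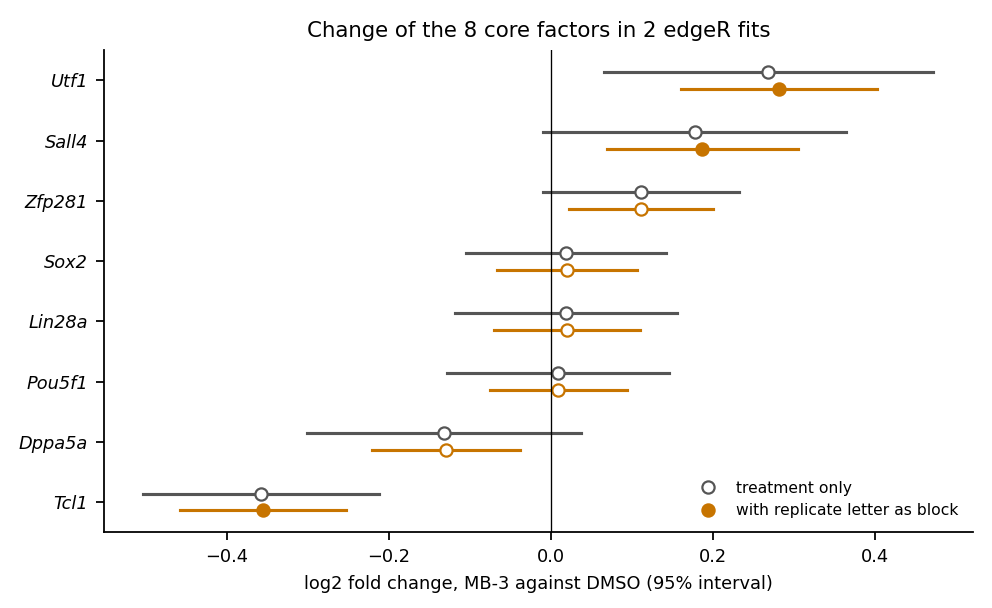
Log2 fold change of MB-3 against DMSO with its 95% interval for the 8 members, from the fit with treatment only (grey) and with the replicate letter as a block (orange). Filled points passed an adjusted p-value of 0.05, which holds for Utf1, Sall4 and Tcl1 with the block and for no member without it.

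Pou5f1 (ENSMUSG00000024406, GRCm38 chromosome 17 from 35506018 to 35510772, plus strand), the gene of Oct4, was measured at 650, 713 and 653 CPM in DMSO replicates A, B and C. The MB-3 libraries gave 660, 717 and 652 CPM in the same order. The 2 groups covered nearly the same range, with replicate B the highest in both. The log2 fold change was 0.01 with a standard error of 0.06 and a 95% interval from -0.13 to 0.15 (edgeR with Benjamini-Hochberg adjustment, adjusted p = 0.974), so that MB-3 levels between 0.915 and 1.11 times the DMSO level lie inside it. With the block the interval narrowed to -0.08 to 0.09.

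Sox2 (ENSMUSG00000074637, chromosome 3 from 34650405 to 34652461, plus strand), a gene with a single exon that encodes the partner of Oct4, gave 439, 476 and 436 CPM in DMSO replicates A, B and C. The corresponding MB-3 levels were 450, 459 and 460 CPM. All MB-3 libraries lay inside the DMSO range, and their SD was 5.72 CPM against 22.5 CPM in DMSO. The fit gave 0.02 on the log2 scale (95% interval -0.11 to 0.14), with an adjusted p of 0.934 (edgeR with Benjamini-Hochberg adjustment). For the pair of master regulators, therefore, the data give no difference beyond the spread, and the interval of Sox2 reaches from 0.930-fold to 1.10-fold.

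The 2 zinc finger genes both had higher means in MB-3. Sall4 (ENSMUSG00000027547, chromosome 2 from 168748332 to 168767943, minus strand) stood at 156, 185 and 137 CPM in DMSO replicates A, B and C. It was at 184, 173 and 184 CPM in MB-3. DMSO replicate B was thus as high as the MB-3 libraries, and within letter B the level was lower in MB-3, whereas in letters A and C it was higher by 0.24 and 0.42 on the log2 scale. The log2 fold change was 0.18 (standard error 0.09, 95% interval -0.01 to 0.36) without the block and 0.19 (95% interval 0.07 to 0.30) with it, and the adjusted p was 0.483 and 0.0443 (edgeR with Benjamini-Hochberg adjustment). The block call did not hold in DESeq2, which gave 0.643 with the block (Benjamini-Hochberg adjustment), nor in edgeR without letter A (adjusted p = 0.103) or without letter C (adjusted p = 0.53, log2 fold change 0.07), and over the 15 alternatives listed for each member its adjusted p ran from 0.0256 to 0.867.

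Zfp281 (ENSMUSG00000041483, chromosome 1 from 136624901 to 136630053, plus strand), which binds GC-rich promoters and takes part in the exit from naive pluripotency, was the most even member among DMSO libraries. Its level was 138, 133 and 128 CPM in DMSO replicates A, B and C against 150, 143 and 138 CPM in MB-3. The lowest MB-3 library was nearly level with the highest DMSO library. The 3 log2 ratios within letters were 0.12, 0.11 and 0.11. The gene did not pass the threshold without the block (log2 fold change 0.11, 95% interval -0.01 to 0.23, adjusted p = 0.499) or with it (adjusted p = 0.132, edgeR with Benjamini-Hochberg adjustment).

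Utf1 (ENSMUSG00000047751, chromosome 7 from 139943789 to 139945112, plus strand), the target of Oct4 and Sox2, had the highest log2 fold change of the members. Its level was 176, 240 and 184 CPM in DMSO replicates A, B and C. In MB-3 it was 239, 232 and 251 CPM. As for Sall4, DMSO replicate B stood apart from A and C, here inside the MB-3 range, so the groups overlapped. The log2 fold change was 0.27 (standard error 0.09, 95% interval 0.06 to 0.47, adjusted p = 0.303) without the block. With the block it was 0.28 (95% interval 0.16 to 0.40) and passed the threshold (adjusted p = 0.00229, edgeR with Benjamini-Hochberg adjustment). It also passed when any 1 letter was left out of both groups, with sizes from 0.20 to 0.44. The standard error with the block was 0.06 in edgeR and 0.15 in DESeq2. The edgeR error is partly shared among genes, so these calls do not rest on Utf1's own ratios within letters alone. DESeq2 did not call Utf1 with the block (Benjamini-Hochberg adjusted p = 0.429), and over the 15 alternatives its adjusted p ran from 0.00176 to 0.737. Within letter B the log2 ratio was -0.04, against 0.44 and 0.45 in A and C.

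Tcl1 (ENSMUSG00000041359, chromosome 12 from 105216750 to 105222793, minus strand), the Akt coactivator, was the member whose groups were farthest apart. DMSO replicates A, B and C gave 114, 120 and 102 CPM. The MB-3 libraries of these letters gave 82.4, 90.7 and 89.5 CPM. Every MB-3 library lay below every DMSO library, and the ratio was below 1 within each letter, at -0.47, -0.40 and -0.19 on the log2 scale for A, B and C. The mean went from 112 ± 8.97 to 87.6 ± 4.48 CPM (SD, n = 3), or 0.780-fold, which is -0.36 on the log2 scale (standard error 0.07, 95% interval -0.50 to -0.21). Without the block the adjusted p was 0.0549, just above the threshold, and with it Tcl1 fell with an adjusted p of 9.57e-06 (edgeR with Benjamini-Hochberg adjustment). DESeq2 called it both without the block (Benjamini-Hochberg adjusted p = 0.000384) and with it (1.25e-06). Among the 15 alternatives tried, the direction stayed the same in all, and 6 called the gene (adjusted p from 1.25e-06 to 0.373).

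Dppa5a (ENSMUSG00000060461, chromosome 9 from 78367052 to 78368177, minus strand) was measured at 1475, 1577 and 1298 CPM in DMSO replicates A, B and C. In MB-3 it was at 1260, 1414 and 1296 CPM. The values were lower in MB-3 in letters A and B, by 0.23 and 0.16 on the log2 scale, and nearly equal in letter C, and the groups overlapped. The log2 fold change was -0.13 (95% interval -0.30 to 0.04, adjusted p = 0.568), and with the block the adjusted p was 0.0773 (edgeR with Benjamini-Hochberg adjustment). The block fit gave -0.08 without letter A (adjusted p = 0.575), -0.12 without letter B (0.356) and -0.19 without letter C (0.00079), so that it passed in the last of these only (edgeR with Benjamini-Hochberg adjustment). The fit with treatment only gave -0.07 when DMSO replicate B was left out. Lin28a (ENSMUSG00000050966, chromosome 4 from 134003330 to 134018841, minus strand) was at 483, 537 and 478 CPM in DMSO and at 485, 508 and 525 CPM in MB-3, each for A, B and C. For this blocker of let-7 the ranges overlapped, with a log2 fold change of 0.02 (95% interval -0.12 to 0.16, adjusted p = 0.941, edgeR with Benjamini-Hochberg adjustment).

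**Figure D3:**
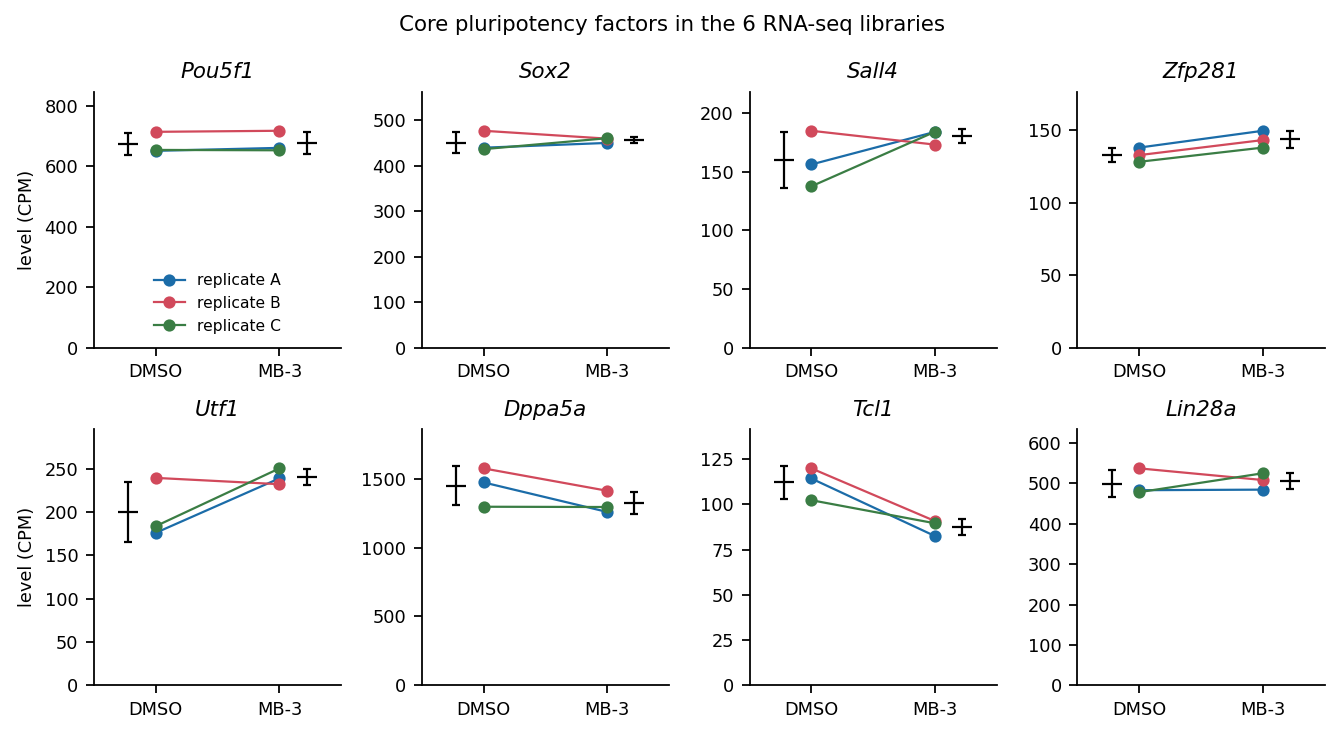
Level in CPM of each member in the 3 DMSO and 3 MB-3 libraries, with lines joining libraries of the same replicate letter and black bars giving the mean and SD (n = 3). The groups separate in Tcl1, from 102 CPM or more in DMSO to 90.7 CPM or less in MB-3, whereas Sall4 and Utf1 have DMSO replicate B inside or above the MB-3 range.

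The members also shared a pattern among the control libraries. DMSO replicate B held the highest DMSO level in 7 of 8 members, Zfp281 being the exception, where 37.1% of all genes tested had their highest DMSO level in that library. The SD was smaller in MB-3 than in DMSO in 7 of 8 members, again except Zfp281, against 57.1% of all genes tested. The coefficient of variation between DMSO libraries was highest in Utf1 (17.3%) and Sall4 (14.97%) and lowest in Zfp281 (3.66%), against a median of 5.63% over the 10164 genes with a mean of at least 10 CPM. In MB-3 it was 3.84% in Utf1 and 3.50% in Sall4, against a median of 4.82%. These are counts from 3 libraries each, with no test of the spread, and genes of 1 library are not independent.

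Groups that did not overlap were seen in 2 of 8 members (Zfp281 higher and Tcl1 lower), against 15.6% of all genes tested (8.22% higher and 7.37% lower). The direction was the same within letters A, B and C in 3 of 8 (Zfp281 higher, Dppa5a and Tcl1 lower), against 40.6% of all genes tested (20.2% higher and 20.3% lower), so that this share is near the background. An exact permutation test of 3 against 3 libraries cannot give a two-sided p-value under 0.1 for a single gene.

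Markers of other lineages differed between the same libraries. The 6 mesendoderm markers (T, Mixl1, Eomes, Gsc, Foxa2 and Lhx1), transcription factors of the primitive streak and its derivatives, summed to 26.0, 15.8 and 48.1 CPM in DMSO replicates A, B and C. In MB-3 they summed to 10.2, 8.04 and 13.7 CPM. DMSO replicate B, where Utf1 and Sall4 were highest, thus had the lowest sum of the DMSO libraries, and all MB-3 libraries were lower still. All 6 had lower means in MB-3. Of the 5 tested, 1 fell without the block (background 0.105% lower) and 4 fell with it (T, Mixl1, Eomes and Lhx1, background 3.9% lower). The 1 without the block was Lhx1, at 46, 32 and 74 reads in DMSO and 8, 4 and 7 in MB-3 (adjusted p = 0.0243, edgeR with Benjamini-Hochberg adjustment). Its call was lost when MB-3 A or MB-3 B was left out, where 0 genes were called. T, the most abundant, was at 16.5, 9.05 and 32.5 CPM in DMSO and at 4.68, 3.58 and 7.44 CPM in MB-3 replicates. None of the 6 was at 0 in any library. Over both groups together Gsc, Foxa2 and Lhx1 averaged under 1 CPM, with Lhx1 at 1.05 CPM in DMSO. The part of this difference in the values of Sall4, Utf1 and Tcl1 was not tested.

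The sums of the other marker lists lay closer together. The 8 fibroblast markers summed to 9.66, 8.06 and 10.8 CPM in DMSO and to 6.75, 6.92 and 6.72 CPM in MB-3, with no overlap. All 8 had lower means in MB-3. Thy1 was the most abundant, and Lum and Postn were at 0 in at least 1 library. The 5 primitive endoderm markers gave 9.54 ± 1.70 and 8.35 ± 0.806 CPM (DMSO and MB-3, SD, n = 3), led by Dab2, with Gata4, Gata6, Sox17 and Sox7 under 1 CPM. All 5 had lower means in MB-3. The 5 neuroectoderm markers gave 72.2 ± 12.0 and 62.5 ± 2.44 CPM, led by Nes in DMSO and by Pax6 in MB-3, with Zic1 and Pax3 at 0 in at least 1 library. Of these 5, 3 had lower means in MB-3. The 5 trophoblast markers gave 66.8 ± 2.39 and 73.6 ± 1.63 CPM, with no overlap and MB-3 higher. They were led by Tfap2c, which ES cells also express, with Elf5 at 0 in at least 1 library. Tfap2c alone had a higher mean in MB-3, and the other 4 had lower means. With the block, where the background was 7.12% of all genes tested, 2 of 6 tested fibroblast markers passed, Col1a1 and Col1a2 (both lower). Of 4 tested primitive endoderm markers, 0 passed. Of 3 tested neuroectoderm markers 2 passed, Nes (lower) and Pax6 (higher), and of 4 tested trophoblast markers 1 passed, Tfap2c (higher).

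Around the members, 5 lists of genes tied to them by function or descent were read from the same fit, with the same backgrounds of 0.205% without the block, 7.12% with it and 10.9% at an unadjusted p-value under 0.05. For the counts by direction in these lists, the background was 49.7% of all genes tested higher in MB-3. Of 16 partners and targets of Oct4 and Sox2, 10 had higher and 6 lower means in MB-3, and their median log2 fold change was 0.02. Tbx3, a naive transcription factor, was the only one differentially expressed without the block: it was at 70.3, 66.3 and 66.2 CPM in DMSO and at 52.7, 49.2 and 51.6 CPM in MB-3, with no overlap. On the log2 scale Tbx3 fell by 0.40, with an adjusted p of 0.0243 (edgeR with Benjamini-Hochberg adjustment). The call was lost when DMSO A, DMSO C, MB-3 A or MB-3 B was left out. Its exons overlap those of the antisense gene Tbx3os1. With the block 4 of 16 were called, with Tbx3, Tfcp2l1 and Lefty1 lower and Fgf4 higher. Fgf4, which like Utf1 is controlled by a joint Oct4 and Sox2 site, had all MB-3 libraries above all DMSO libraries (170 ± 18.4 and 191 ± 1.35 CPM). However, its block call was lost in DESeq2 and in edgeR without letter C. Esrrb, the most abundant of the list over all 6 libraries, was at 676 ± 22.5 and 645 ± 5.75 CPM and was not called in either fit.

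In the Lin28 and let-7 axis, which comprises the processing enzymes of microRNAs and mRNAs that let-7 represses, 11 of 13 genes had higher means in MB-3 and the median log2 fold change was 0.07. None was called without the block, while 3 had an unadjusted p-value under 0.05 in edgeR (background 10.9%). With the block 3 were called: Igf2bp2, an mRNA-binding protein, was higher (144 ± 6.42 and 172 ± 5.80 CPM, SD, n = 3), as was the nuclease Drosha, and the chromatin protein gene Hmga2 was lower (24.1 ± 8.62 and 15.4 ± 3.71 CPM). Igf2bp2 and Hmga2 are both known let-7 targets and differed in opposite directions. Hmga1, the most abundant gene of the list, was at 399 ± 23.0 and 392 ± 25.7 CPM and was not called.

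Among family relatives of the members, 18 of 24 were tested, 13 of them with higher and 5 with lower means in MB-3 (median log2 fold change 0.10). Sox21, a SoxB relative of Sox2, rose from 6.65 ± 0.413 to 9.80 ± 0.266 CPM (SD, n = 3). The rise was 0.56 on the log2 scale, with an adjusted p of 0.0358 (edgeR with Benjamini-Hochberg adjustment). It was the only relative called without the block, and the call was lost with limma-voom and when any library but DMSO B was left out. With the block 4 were called, all higher: Sox21, Sall1, Pou2f1 and Dppa2. Not all of these calls held, since the block called 2 relatives without letter B and 3 in DESeq2. Without letter A it called 5 (1 of them lower), and without letter C 4. Sall1, the relative of Sall4 and the most abundant gene of this list, was at 244 ± 17.8 and 286 ± 11.1 CPM, with every MB-3 library above every DMSO library. Pou2f3 had the lowest log2 fold change, -0.44, at 1.04 CPM in DMSO, and was not called. Over the libraries of both groups it had 21 to 58 reads per library. The relatives Tcl1b1 to Tcl1b4 and Pou3f2 had too few counts to be tested, and Tcl1b5 was not analysed here.

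The NuRD complex, a deacetylase and remodeling complex that Sall4 and Zfp281 recruit, showed 0 of 12 genes called without the block (4 with an unadjusted p-value under 0.05 in edgeR, background 10.9%) and 1 with it. That gene was Chd4, its ATPase and most abundant member, at 395, 384 and 367 CPM in DMSO against 428, 431 and 411 CPM in MB-3. The call was lost without letter C. The log2 fold changes of the list ran from -0.06 (Hdac2) to 0.17 (Gatad2b), with a median of 0.05. Of 10 genes of the Akt pathway, in which Tcl1 acts, 0 were called without the block (2 with an unadjusted p-value under 0.05 in edgeR, background 10.9%) and 2 with it, both higher, among them Eras, a Ras protein of ES cells (33.0 ± 5.75 and 38.1 ± 3.13 CPM, SD, n = 3). Tsc2, the most abundant gene of the list, was not called in either fit, and 0 genes of the list were called with the block without letter C.

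**Figure D4:**
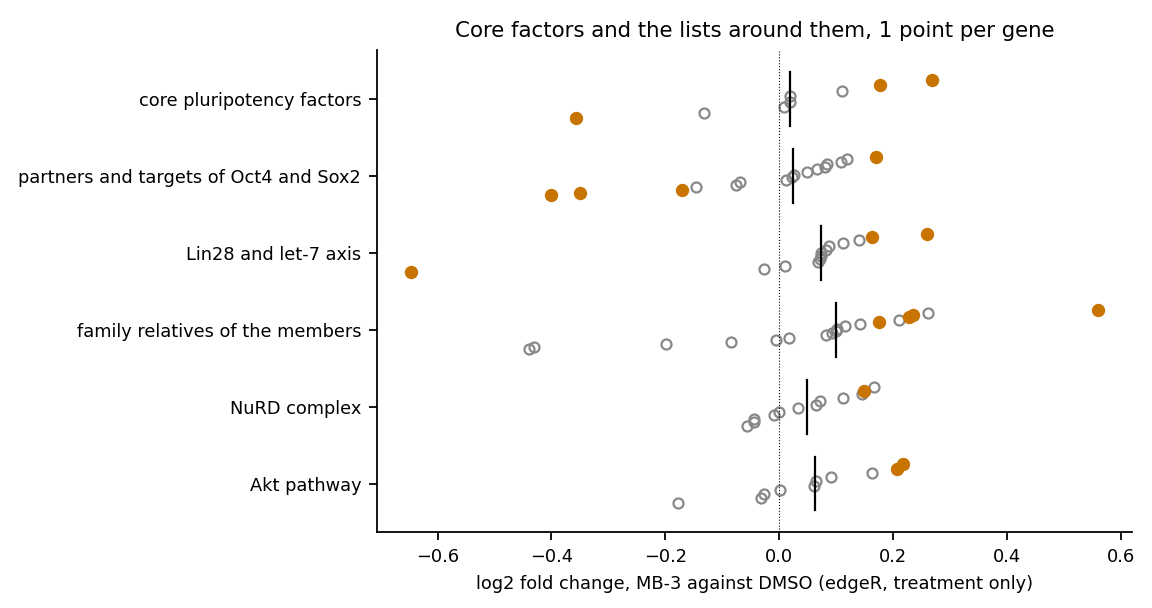
Log2 fold change of MB-3 against DMSO for each tested gene of the 8 core factors and of 5 lists around them (edgeR, treatment only), with a vertical bar at each list's median. Filled orange points passed an adjusted p-value of 0.05 with the replicate letter as a block, and the medians lie between 0.02 and 0.10.

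The reliability of the counts differed between members. Dppa5a shares at least 95% identity over 100 bases or more with 8 other stretches of GRCm38, among them the pseudogene Gm6083 on chromosome 5, which aligns over 595 of the 619 bases of the Dppa5a transcript at 96.0% identity. Gm6083 itself averaged 132 CPM (DMSO) and 114 CPM (MB-3), so reads of the pair may have been split and the level of Dppa5a is uncertain. Pou5f1 has 1 such copy of 385 bases at 100% identity, inside Cop1 on chromosome 1, and Lin28a has 1 of 572 bases on chromosome 7. No such copy was found for Sox2, Sall4, Utf1, Tcl1 or Zfp281. Exons of Pou5f1, Sall4 and Lin28a also overlap a noncoding gene on the other strand, by 317, 526 and 234 bases, and whether strand was used in counting is not given in the sources used here. Sox2 lies inside the noncoding gene Sox2ot on the same strand, with no exon base shared and Sox2ot at 2.41 to 3.57 CPM. The 3 genes on the other strand were listed at 0.886 CPM or less in every library.

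By the rule of highest Pearson correlation of log2 CPM over the 6 libraries, the genes most like Tcl1 among 10164 included Atp6ap2 (r = 0.994) and Ttc1 (0.985). For Utf1 the 3 nearest were Rtf1 (0.993), Gtpbp3 (0.992) and Pgrmc2 (0.990), and for Sall4 Ydjc (0.990), Gm13862 (0.989) and Ccs (0.988). The nearest gene was Dnajc19 for Pou5f1 (0.992), Mrps12 for Sox2 (0.994), Gm5514 for Lin28a (0.993), Gm13443 for Dppa5a (0.992) and Mex3a for Zfp281 (0.995). No gene of the member list was among these. These are among the highest of 10164 values for each member over only 6 libraries and are given as a description.

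H3K9ac, a mark of active promoters, was read for 2 members, Pou5f1 and Zfp281, whose peaks could be placed through the part of the study's peak annotation used here. At the other members, Sall4 included, it was not analysed here. The peaks were called on merged duplicates of each treatment, without heights, so that there was no replicate spread to test and the read depth behind the lists is unknown here. Over the whole genome 11724 peaks were listed in DMSO and 4673 in MB-3, and 64.2% of the DMSO peaks shared no base with an MB-3 peak. The covered bases went from 7451033 to 2349017, or 68.5% fewer. At Pou5f1, on mm9, the annotation used here named an MB-3 peak only and none of the DMSO peaks. The DMSO list had 4 peaks within 5000 bases of that named peak, at chr17:35641261-35641800, chr17:35642339-35642810, chr17:35642941-35645454 and chr17:35645683-35646083. The MB-3 list had 1, the named peak itself, at chr17:35643096-35644769, so that its presence was fixed by the choice of window. It lay wholly inside the widest DMSO peak and covered 1674 of its 2514 bases, and the other 3 DMSO peaks shared no base with an MB-3 peak. The peaks there covered 3927 bases in DMSO and 1674 bases in MB-3, or 57.4% fewer, beside RNA levels of Pou5f1 of 672 ± 35.4 and 676 ± 35.1 CPM (SD, n = 3).

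Near Zfp281 the study named 10 DMSO peaks between positions 138465465 and 138596170 of mm9 chromosome 1, and 2 MB-3 peaks. The 2 MB-3 peaks, at chr1:138467284-138467710 and chr1:138592963-138593507, each overlapped 1 DMSO peak. The other 8 DMSO peaks, 286 to 633 bases wide, shared no base with the MB-3 list, and the covered bases went from 4827 to 972, or 79.9% fewer. The names are the study's own, and the genes lying in this interval of mm9 were not checked here. RNA of Zfp281 averaged 133 ± 4.86 and 144 ± 5.83 CPM (DMSO and MB-3, SD, n = 3). The percentage drop in covered bases was below that of the whole lists for the Pou5f1 peaks and above it for the peaks named for Zfp281. The 2 values cover unlike windows. The Pou5f1 peaks lie within 5000 bases of a peak kept in MB-3, and the Zfp281 peaks are spread over the wider interval above. The Zfp281 value is a total over that interval and not a loss at the gene itself. Neither difference was tested, and nothing particular to these genes is read from it.

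**Figure D5:**
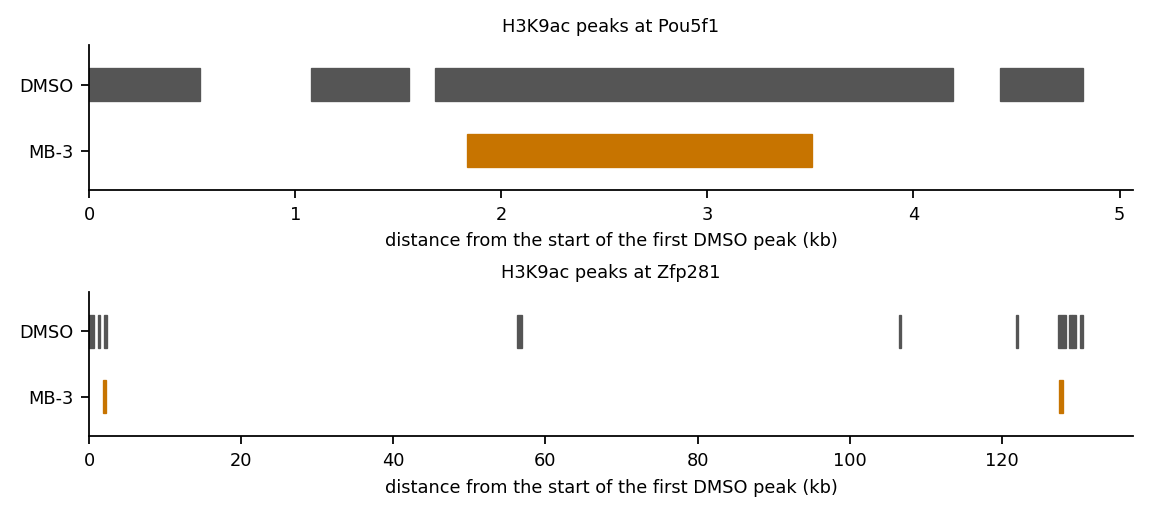
H3K9ac peaks of the DMSO list (upper row, grey) and of the MB-3 list (lower row, orange) around Pou5f1 and Zfp281, against distance in kb from the start of the first DMSO peak. Of the 4 DMSO peaks at Pou5f1 and the 10 named for Zfp281, 1 and 2 share bases with an MB-3 peak.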

How the data were processed

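The deposited RNA-seq table holds raw counts per Ensembl gene, which the authors obtained by mapping trimmed reads on mm10 (Bowtie) and counting exonic hits (GenomicAlignments). Aligner versions, annotation release and strand setting are not given in the sources used here. The H3K9ac lists come from reads mapped on mm9 (BWA), with duplicates pooled before MACS2. The deposited lists hold positions only, which were kept on mm9, with starts counted from 1. Symbols, positions and exon lengths were taken from GENCODE M21 (GRCm38), which matched 30540 of 30677 identifiers; 0 rows named no gene and 0 columns were left unused.

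Counts were filtered with filterByExpr, normalized by TMM (factors 0.977 to 1.02) and tested with glmQLFit and glmQLFTest in edgeR 4.0.16 (R 4.3.3), with treatment as the only term and Benjamini-Hochberg adjustment over all 20027 genes. Within-letter ratios and correlations used log2(CPM + 0.5). Standard errors are the log2 fold change over the square root of the F statistic. Libraries of the same letter deviated together from their group means (r = 0.265, 0.483 and 0.359 for A, B and C over 15959 genes), so the letters were taken as pairs and the block fit is given where it changes a call. Alternatives were other normalizations and filters, DESeq2 1.42.0, limma-voom (limma 3.58.1), robust estimation, the block and leaving out each library. Near copies were searched with BLAST 2.17.0. The members and lists were chosen with earlier results of these data known. The rule named all members, and of each list its most abundant gene, its highest and lowest log2 fold change and each gene called without the block. Genes called only with the block were named after their values were seen. Some genes that the rule names are not reported here.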

Additional observations from a re-analysis of the deposited data

How the results depend on the processing

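Over all genes, 41 were differentially expressed with treatment as the only term. The count was 25 with upper quartile scaling, 24 with a filter of at least 1 CPM in 3 libraries, 18 with limma-voom, 66 with robust estimation, 194 without a filter and 192 with DESeq2. Leaving out 1 library gave 0 to 520 genes, with 520 without DMSO replicate B, 3 without DMSO A, 5 without DMSO C and 0 without MB-3 A or MB-3 B (edgeR, 1440 and 1716 genes with an unadjusted p under 0.05). With the replicate block 1425 genes were called, and 626 with the block in DESeq2. After the data had been seen, each letter was also left out of both groups in the block fit, which gave 939, 912 and 1037 genes without A, B and C.

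Of the 8 members, 0 were called with treatment only, 1 (Tcl1) without a filter, with DESeq2 and with robust estimation, and 0 to 3 when 1 library was left out. The replicate block called 3 in edgeR and 1 in DESeq2, and without letters A, B and C it called 2, 3 and 3, with Dppa5a in place of Sall4 without C. Tcl1, Dppa5a, Utf1, Sall4 and Zfp281 kept their direction in every alternative run. The near-zero log2 fold changes of Pou5f1 (-0.0367 to 0.05301), Sox2 (-0.0048 to 0.0603) and Lin28a (-0.0122 to 0.0737) changed sign when single libraries were left out, and those of Sox2 (-0.0097) and Lin28a (-0.0382) in the block fit without letter C. The cause was not tested.

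For the lists, the called genes among partners and targets of Oct4 and Sox2 went from 1 to 2 with DESeq2, 4 with the replicate block, 3 with the block in DESeq2, and 3, 3 and 4 in the block fits without A, B and C. For the Lin28 and let-7 axis they went from 0 to 1 (no filter), 1 (DESeq2), 3 (block), 3 (block in DESeq2), and 3, 4 and 2 without A, B and C. For family relatives they went from 1 to 0 (limma-voom), 4 (block), 3 (block in DESeq2), and 5, 2 and 4. NuRD genes went from 0 to 1 with the block in either tool, and to 1, 1 and 0, and Akt genes to 2 (block), 1 (block in DESeq2), and 1, 2 and 0. When 1 library was left out the counts ran from 0 to 1, 0 to 3, 0 to 1, 0 to 0 and 0 to 1 in the order given.

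With the longest transcript in place of merged exons, DMSO means moved to 494 (Pou5f1), 143 (Lin28a) and 80.2 (Tcl1) CPM per kb with the order of the means kept. The Lin28a mean then lay beside the lowest Utf1 library (143.5 CPM per kb), so the separation of Utf1 and Lin28a in every library is stated for merged exons only. Counting peaks within 1000 bp as shared gave 4 of the DMSO peaks named for Zfp281 and 3 at Pou5f1, and requiring a width of 500 bp gave 1 of those named for Zfp281.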
